A study of Mus musculus with 10 samples.

Results

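The transcripts described here are those of 8 immediate early genes, Egr1, Fos, Fosb, Jun, Junb, Atf3, Ier2 and Dusp1, chosen by name and all found among the 20006 genes measured. They were followed by RNA-seq in 10 whole mouse embryos of embryonic day 7.5, of which 5 were mutant for both Axin1 and Axin2 (mutants 1 to 5) and 5 were wild type (WT 1 to 5). Axin1 and Axin2 encode scaffolds around which β-catenin, the effector of canonical WNT signalling, is marked for degradation, and the comparison asks what the mutation of both does to transcript levels in the gastrulating embryo. No source used here gives the structure of the alleles, the strain, the sex or the litters of the embryos. Values are read counts that the authors scaled by 1 size factor per embryo, called scaled counts below, and log2 fold changes are mutant over WT with a standard error (SE). A gene is called, or said to rise or fall, where limma's adjusted p over all genes tested is under 0.05.

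Immediate early genes are transcribed within minutes of a signal and need no new protein synthesis to be switched on. Growth factors such as FGF act through the kinase ERK on ETS factors and on the serum response factor SRF, while stress kinases and cyclic AMP act through factors of the CREB and ATF family. Their transcripts are short-lived, so that levels follow recent signalling, and they are known to respond to dissection and other handling of tissue as well. Egr1 encodes a zinc finger transcription factor. Fos, Fosb, Jun and Junb encode subunits of the dimeric transcription factor AP-1, and Atf3 encodes a stress-induced member of the CREB and ATF family that can pair with Jun proteins. Ier2 encodes a short nuclear protein, and Dusp1 encodes a phosphatase that inactivates MAP kinases and so closes the response.

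Promoter sequences (RefSeq, build GRCm38.p6, the assembly also called mm10) were at hand for 6 of the 8 genes, but not for Egr1 and Ier2. Of these, 4 are shown because they set genes whose transcripts rose in mutants (Atf3, Junb) beside genes for which no change was called (Fos, Dusp1). Each runs 5′ to 3′ on the strand of the gene, from 250 bases before the RefSeq start to 50 bases after it. Capitals mark the half-site of the cyclic AMP response element (CRE), TGACGT, and the TATA box, TATAAA, on either strand.
Atf3, chr1:191183284-191183583, minus strand: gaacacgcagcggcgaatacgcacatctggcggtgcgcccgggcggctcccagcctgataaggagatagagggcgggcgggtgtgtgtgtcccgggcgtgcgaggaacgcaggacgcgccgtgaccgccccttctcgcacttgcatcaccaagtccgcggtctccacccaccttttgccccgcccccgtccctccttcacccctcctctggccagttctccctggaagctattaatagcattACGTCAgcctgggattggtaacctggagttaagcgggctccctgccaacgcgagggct
Junb, chr8:84978699-84978998, minus strand: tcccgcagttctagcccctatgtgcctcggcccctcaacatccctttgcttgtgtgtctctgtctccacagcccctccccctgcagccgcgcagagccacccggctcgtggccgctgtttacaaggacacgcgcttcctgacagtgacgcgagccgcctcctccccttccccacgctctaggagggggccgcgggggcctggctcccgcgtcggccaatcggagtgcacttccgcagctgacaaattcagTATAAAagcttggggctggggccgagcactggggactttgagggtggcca
Fos, chr12:85473640-85473939, plus strand: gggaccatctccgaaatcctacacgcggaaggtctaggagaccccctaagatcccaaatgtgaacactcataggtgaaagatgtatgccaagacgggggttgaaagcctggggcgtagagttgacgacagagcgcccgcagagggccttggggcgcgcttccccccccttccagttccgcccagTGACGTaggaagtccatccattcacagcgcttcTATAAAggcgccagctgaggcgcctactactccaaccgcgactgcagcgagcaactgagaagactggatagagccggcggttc
Dusp1, chr17:26508423-26508722, minus strand: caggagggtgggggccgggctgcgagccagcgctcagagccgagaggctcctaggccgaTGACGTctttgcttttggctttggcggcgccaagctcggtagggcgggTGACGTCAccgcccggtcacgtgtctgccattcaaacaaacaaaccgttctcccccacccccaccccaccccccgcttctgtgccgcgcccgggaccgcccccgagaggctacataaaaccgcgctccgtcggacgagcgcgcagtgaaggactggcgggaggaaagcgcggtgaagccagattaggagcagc
The CRE half-site began 8 bases before the start in Atf3 and 66 bases before it in Fos. In Dusp1 it was found 191, 143 and 141 bases before the start, the last 2 being the same full CRE, TGACGTCA, read on both strands. It was found in 3 of the 6 promoters, against 7.51% of 32851 promoters of the same length, and the full CRE in 1 of the 6, against 1.79%. TATAAA was found in Fos, 33 bases before the start, and in Junb, and is present in 13.6% of all promoters. In Junb it lay at the RefSeq start itself, 30 bases before the start in the GENCODE annotation. The RefSeq starts of Atf3 and Dusp1 lie 34706 and 53656 bases inside the GENCODE genes, which include transcripts from starts further upstream. The AP-1 site TGANTCA was in 0 of the 6 (7.81% of all promoters), and the CArG box, which SRF binds, in 0 of the 6 (1.63%). The EGR site GCGNGGGCG was found in Fosb alone of the 6 (5.55% of all). Matches of letters are a description of these windows. Sites more than 250 bases before the start were not searched, nor was any sequence of Egr1 or Ier2. A count of 0 therefore does not show that the genes lack such sites. The half-site was in Atf3, called higher in mutants, and in Fos and Dusp1, which were not called. Which starts these embryos used is not known here, and the part of these sites in the changes was not tested.

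Libraries held 20744547 to 28505209 reads. Axin1 had 1319, 1134, 1108, 2336 and 820 scaled counts in mutants 1 to 5 and 3314, 3764, 3509, 3325 and 3843 in WT 1 to 5, lower in every mutant (log2 fold change −1.49, SE 0.21, limma adjusted p = 0.000614). Axin2 measured 447.6 ± 113.6 in mutants and 440.8 ± 43.12 in WT (SD, n = 5 each; log2 fold change −0.01, adjusted p = 0.981). Mutant 4, with the highest Axin1 of the mutants, stood apart: it lay at −16.6 on the first principal component, against −78.4 to −62.3 for the other mutants and 51.8 to 73.3 for WT. It was also the only embryo with high levels of both Xist, the RNA of the inactive X chromosome (1050 scaled counts), and the Y-linked gene Ddx3y (717.6). Summed markers of the maternal decidua, the tissue around the embryo (Prl8a2, Prl3c1 and Dcn, all 3 in the table and 2 of 3 called higher), came to 368 to 7378 scaled counts in mutants and 20.7 to 362.2 in WT. Mutants 3 and 4 were highest, at 7378 and 3297. Markers of the labelled tissue were present, with the epiblast markers at 13503 to 17191 in mutants and 34963 to 47410 in WT (2 of 3 called lower). Of 4 streak and mesoderm markers 1 rose and 2 fell. The markers of visceral endoderm (4), trophoblast (3) and blood (3) gave 0 calls, with 1 gene of each at an unadjusted p under 0.05, 0 calls by edgeR, and 0, 1 and 1 by DESeq2. With mutants 1, 2 and 5 alone set against WT, 2 of 4 visceral endoderm markers, 1 of 3 trophoblast markers and 0 of 3 blood markers were called, all higher in mutants. The summed visceral endoderm markers came to 83529 to 94161 scaled counts in mutants 1, 2, 3 and 5 and 48178 in mutant 4, against 57599 to 80324 in WT. Among the blood markers, Ptprc and Lyz2 were highest in mutant 3, at 89.6 and 440.2 scaled counts. In the other embryos Ptprc ran from 0 to 13.4 and Lyz2 from 15.02 to 172.3. Hbb-bs was not high in mutant 3, at 1650 against 933.3 to 7596.5 in the other embryos. Among the trophoblast markers, Tfap2c was highest in mutant 4, at 9354 scaled counts against 2040 to 3655 in the other embryos. Elf5 and Rhox5 were not high in mutant 4, at 145.5 and 8595. Prl3d1, a prolactin family gene outside these marker lists, had 9979 scaled counts in mutant 4 and 59.1 to 2703 in the other embryos. The part of these cell types in the results below was not tested. In whole embryos, fewer cells of a type and less RNA per cell cannot be told apart.

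Of the 7 genes with a mean of at least 10 scaled counts, Egr1, Atf3 and Junb rose in mutants and none fell. That is 3 of 7 (42.9%), against 25.1% of 15429 genes called in either direction 11.4% called higher and 13.8% called lower. The count over all genes was 3877, and 2481 without WT 5. The count of 0 lower genes was also 0 at an unadjusted p under 0.05 and with edgeR and DESeq2. The median log2 fold change of the 7 was 0.46, against 0.01 for all genes tested. Groups did not overlap for 2 of the 7, Egr1 and Atf3, with mutants above WT, against 7.14% of all genes. No gene of the 7 had all mutants below WT, against 9.97% of all genes. With mutants 3 and 4 left out, a comparison chosen after the data were seen, 2 of 7 rose, Egr1 and Atf3. Over all genes that comparison gave 3692 calls, and its balance lay further towards lower calls than with all mutants. The counts of related lists in mutants 1, 2 and 5 are to be read against that shift. Whether any list shifted more than all genes was not tested.

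**Figure D1:**
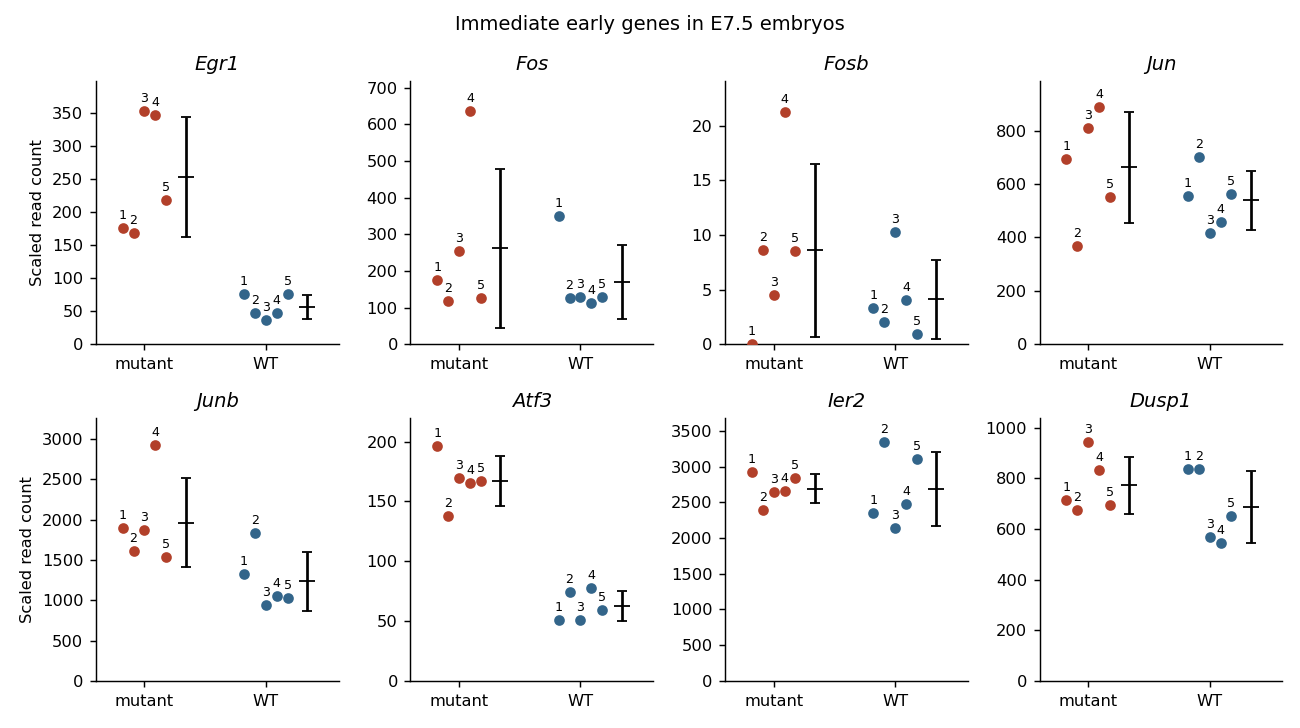
Scaled read counts (y axis, linear from 0) of the 8 genes in mutant and WT embryos, 1 point per embryo with its number, and the mean ± SD beside them in black (n = 5 each). For Egr1 and Atf3 every mutant lies above every WT embryo, for Junb 3 of 5 mutants do, and for the other genes the groups overlap more widely.

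Egr1 had the largest change of the 8. It measured 175.5, 168.5, 352.8, 346.7 and 218.4 scaled counts in mutants 1 to 5, against 75.2, 47.3, 36.3, 47.5 and 76.0 in WT 1 to 5. Every mutant lay above every WT embryo, and mutants 3 and 4 were the highest. The means were 252.4 ± 90.9 in mutants and 56.5 ± 18.1 in WT (SD, n = 5 each), and the ratio of means was 4.47. The log2 fold change was 2.12 (SE 0.29, adjusted p = 0.000446). The two-sided exact permutation test gave p = 0.00794, the smallest that 5 against 5 embryos allow. Egr1 (ENSMUSG00000038418.7) lies on chromosome 18, 34859823 to 34864984, plus strand, and its exons overlap those of no other annotated gene. Its reads numbered 176 to 343 per mutant and 32 to 90 per WT embryo.

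Beside this change, the decidua markers were higher in mutants, and mutants 3 and 4 were highest for both. In mutants 1, 2 and 5 alone the Egr1 fold change against WT was 1.76 (SE 0.29, adjusted p = 0.00128), and without mutant 4 it was 1.99 (SE 0.29). Mutant 1 and WT 3 had nearly equal summed decidua markers, at 368 and 362.2 scaled counts, most of them Prl8a2 (347.3 and 300.9). Prl3c1 (12.3 and 22.7) and Dcn (8.5 and 38.6) were lower in mutant 1 than in WT 3. Egr1 measured 175.5 in mutant 1 and 36.3 in WT 3. These embryos are 1 pair and were not alike in each decidua marker. The part of the decidua in the Egr1 difference was not tested.

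Atf3 had 196.3, 137.9, 169.1, 165.7 and 167.1 scaled counts in mutants 1 to 5, against 51.0, 74.5, 51.1, 77.8 and 59.1 in WT 1 to 5. Every mutant lay above every WT embryo, and mutants 3 and 4 were not set apart from the others. The means were 167.2 ± 20.7 in mutants and 62.7 ± 12.8 in WT (SD, n = 5 each), a ratio of 2.67. The log2 fold change was 1.42 (SE 0.20, adjusted p = 0.00051, exact permutation p = 0.00794), and 1.41 (SE 0.24, adjusted p = 0.00182) in mutants 1, 2 and 5 against WT. Atf3 (ENSMUSG00000026628.13) lies on chromosome 1, 191170296 to 191218039, minus strand. No other annotated gene overlaps its exons.

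Junb had 1889, 1606, 1873, 2918 and 1531 scaled counts in mutants 1 to 5, against 1330, 1834, 939.1, 1057 and 1021 in WT 1 to 5. Mutant 4 was high and the groups overlapped, since WT 2 exceeded mutants 2 and 5. The means were 1963 ± 556.7 in mutants and 1236 ± 364.8 in WT (SD, n = 5 each). The log2 fold change was 0.67 (SE 0.21, adjusted p = 0.0319; exact permutation p = 0.0238). The call was lost without mutant 1 (adjusted p = 0.0591), mutant 3 (0.0591), WT 3 (0.0635), WT 4 (0.0658) or WT 5 (0.084), and the fold change was 0.48 (adjusted p = 0.109) in mutants 1, 2 and 5 against WT. Junb (ENSMUSG00000052837.5, chromosome 8, 84974484 to 84978718, minus strand) shares 173 exonic bases with Prdx2 on the other strand. The library chemistry does not record strand, so reads of the shared bases cannot be told apart.

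Fos, the partner of the Jun proteins in AP-1, varied more among embryos than between genotypes. It measured 174.6, 117.8, 254.3, 635.7 and 125.4 scaled counts in mutants 1 to 5, against 350.2, 125.8, 129.5, 112.1 and 129.5 in WT 1 to 5. Mutant 4 and WT 1 were each far above the rest of their genotype, and the other embryos lay between 112.1 and 254.3. The log2 fold change was 0.46 (SE 0.45, 95% interval −0.52 to 1.44, adjusted p = 0.482), 0.07 (adjusted p = 0.903) without mutant 4 and −0.15 (adjusted p = 0.783) in mutants 1, 2 and 5 against WT. Fos (ENSMUSG00000021250.13) lies on chromosome 12, 85473890 to 85477273, plus strand.

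Fosb, the paralogue of Fos, was close to the limit of detection. It had 0, 9, 4, 21 and 9 reads in mutants 1 to 5, against 4, 2, 9, 4 and 1 in WT 1 to 5. The groups overlapped, with mutant 4 the highest, and 0 reads in mutant 1 allow up to 2.83 scaled counts (a floor of 3 reads, counting error only). Its mean was too low for the test over all genes, and in the fit without a filter its log2 fold change was 0.59 (SE 0.76, adjusted p = 0.635). Fosb (ENSMUSG00000003545.2) lies on chromosome 7, 19302696 to 19310051, minus strand.

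Jun measured 694.6, 369.6, 811.0, 887.4 and 552.7 scaled counts in mutants 1 to 5, against 555.0, 702.5, 415.6, 458.7 and 561.4 in WT 1 to 5. Mutants 3 and 4 lay above every WT embryo and mutant 2 lay below every one. The log2 fold change was 0.26 (95% interval −0.24 to 0.75, adjusted p = 0.438), and −0.02 (adjusted p = 0.954) in mutants 1, 2 and 5 against WT. Jun (ENSMUSG00000052684.4, chromosome 4, 95049034 to 95052222, minus strand, a single exon) shares 232 exonic bases with the antisense gene Junos.

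Ier2 and Dusp1 gave the smallest differences. Ier2 measured 2930, 2399, 2641, 2653 and 2840 scaled counts in mutants 1 to 5, against 2351, 3351, 2142, 2478 and 3109 in WT 1 to 5. The mutants all lay within the range of the WT embryos (log2 fold change 0.02, 95% interval −0.25 to 0.29, adjusted p = 0.923). Dusp1 measured 716.3, 675.0, 943.2, 834.8 and 695.1 in mutants 1 to 5, against 835.9, 837.3, 568.9, 545.6 and 652.4 in WT 1 to 5. Only mutant 3 exceeded the highest WT embryo, and the log2 fold change was 0.18 (95% interval −0.16 to 0.51, adjusted p = 0.421). Ier2 (ENSMUSG00000053560.4) lies on chromosome 8, 84661331 to 84662852, minus strand. Dusp1 (ENSMUSG00000024190.6) lies on chromosome 17, 26505590 to 26562128, minus strand, and shares 11 exonic bases with Ergic1.

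**Figure D2:**
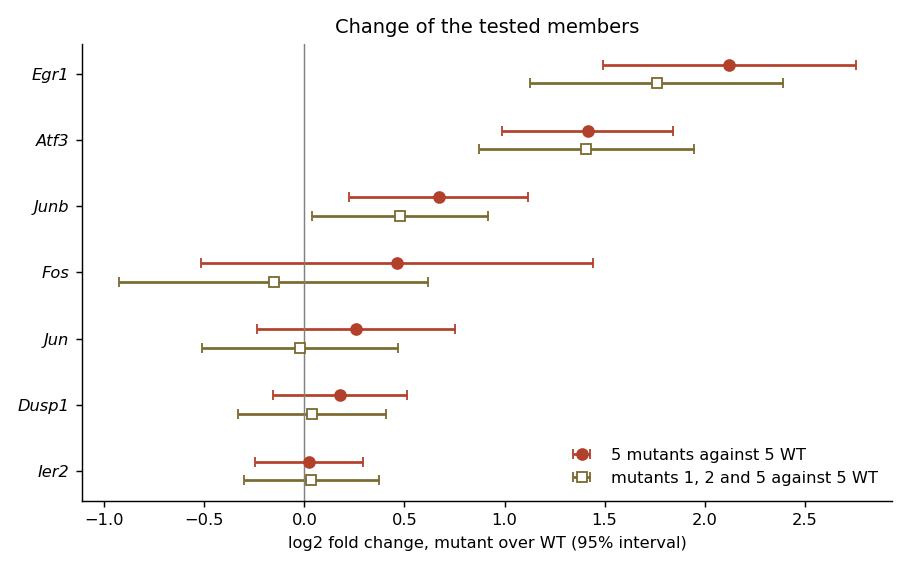
Log2 fold change, mutant over WT, of the 7 tested genes (x axis, with 95% intervals from limma), for 5 mutants against 5 WT embryos (filled circles) and for mutants 1, 2 and 5 against 5 WT embryos (open squares). Egr1 (2.12 and 1.76) and Atf3 (1.42 and 1.41) lie above 0 in both, whereas Fos, Jun, Dusp1 and Ier2 have intervals that span 0.

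The 7 tested genes did not change equally. For each pair the log2 ratio of the 2 genes was compared between genotypes, a test chosen after their values were seen, with p-values adjusted over the 21 pairs. The rise of Egr1 exceeded the change of Ier2 by 2.10 on the log2 scale, of Dusp1 by 1.94, of Jun by 1.87 and of Junb by 1.45 (exact permutation test, adjusted p = 0.0238 for each). It exceeded that of Fos by 1.66 (adjusted p = 0.037, exact permutation test). The log2 ratio of Egr1 to Fos averaged 0.18 ± 0.65 in mutants and −1.48 ± 0.55 in WT (SD, n = 5 each). Atf3 exceeded Ier2 by 1.39, Dusp1 by 1.24 and Jun by 1.16 (adjusted p = 0.0238 for each, exact permutation test), and Junb by 0.74 (adjusted p = 0.0417). Junb exceeded Ier2 by 0.65 and Jun by 0.41 (exact permutation test, adjusted p = 0.0417 for each), and Dusp1 by 0.49 (adjusted p = 0.037). Its difference from Fos was 0.21 (adjusted p = 0.658, exact permutation test). Between Egr1 and Atf3 the difference was 0.71 (exact permutation test, adjusted p = 0.141), and between Atf3 and Fos it was 0.95 (adjusted p = 0.202). Without mutant 4 the last difference was 1.35 (unadjusted exact permutation p = 0.0317), and without WT 1 that between Egr1 and Atf3 was 0.89 (0.0476).

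Levels were compared between genes per kilobase of exon, with all annotated exons of a gene merged. As the transcripts in use are not known here, length is allowed for only as annotated. By this measure the order was Ier2, Junb, Dusp1, Jun, Fos, Atf3, Egr1 and Fosb in both genotypes. Ier2 averaged 1769 ± 134.9 scaled counts per kilobase in mutants and 1765 ± 340.3 in WT, and Junb 853.2 ± 241.9 in mutants and 537.2 ± 158.5 in WT (SD, n = 5 each). Egr1 averaged 56.3 ± 20.3 per kilobase in mutants and 12.6 ± 4.03 in WT, and Fosb 1.37 ± 1.27 in mutants and 0.659 ± 0.58 in WT. The ranges of neighbours in this order overlapped for Dusp1 and Jun and for Jun and Fos in both genotypes. Fos and Atf3 overlapped in mutants, where 2 of 5 embryos had Fos above Atf3, and not in WT, where 5 of 5 did. Likewise Atf3 and Egr1 overlapped in mutants (Atf3 above Egr1 in 3 of 5) and not in WT (5 of 5).

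The genes also differed in how far embryos of 1 genotype lay apart. Fos had a coefficient of variation of 82.6% in mutants and 59.8% in WT, and a residual standard deviation at the 88.4th percentile of all genes tested. Egr1 lay at the 71.6th percentile, Jun at the 64.4th and Junb at the 60.6th. Dusp1 (40.1), Atf3 (37.0) and Ier2 (29.9) varied less than the median gene, Ier2 with 7.62% in mutants and 19.3% in WT. These percentiles are over tested genes of every level, and genes of like level were not compared. Mutant 4 was the highest mutant for Fos, Fosb, Jun and Junb, and mutant 2 was the lowest for Egr1, Fos, Jun, Atf3, Ier2 and Dusp1.

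As deviations from the genotype mean, 20 of the 28 pairs of genes had a positive correlation over the 10 embryos (median r = 0.36). No pair passed the threshold after adjustment over the 28 pairs (smallest adjusted p = 0.164, exact permutation within genotypes), and 8 had an unadjusted p under 0.05. The adjusted p was 0.164 for the r of each pair named here. Jun and Junb had r = 0.75 (exact permutation p = 0.0169) and rho = 0.81 (p = 0.00799), with r = 0.82 without the 2 embryos farthest from the median of Jun. Jun and Dusp1 had r = 0.73 (exact permutation p = 0.00979) and rho = 0.77 (p = 0.00604), with r = 0.75 without 2 such embryos. Egr1 and Fos had r = 0.71 (exact permutation p = 0.0368) and rho = 0.64 (p = 0.0904), and r = 0.62 without 2 embryos. Fos and Junb had r = 0.64 (exact permutation p = 0.0459) and rho = 0.47 (p = 0.181), but r = 0.30 without 2 embryos, so that this relation rests on them. Fosb and Ier2 had r = −0.57 (exact permutation p = 0.0299) and rho = −0.61 (p = 0.049), with r = −0.78 without 2 embryos. Fosb had only 0 to 21 reads per embryo, so that counting error weighs on its deviations and on this r.

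**Figure D3:**
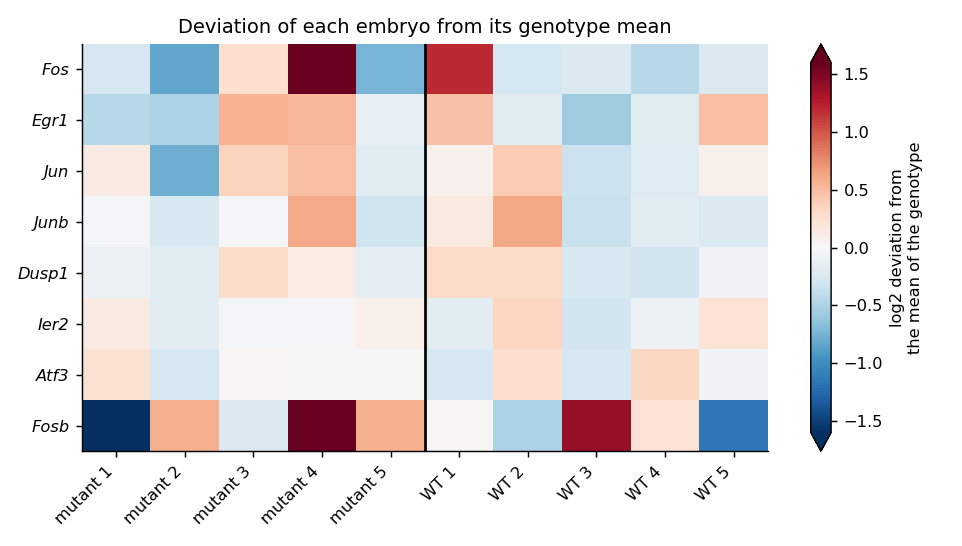
Deviation of each embryo (columns, mutants 1 to 5 left of the line and WT 1 to 5 right of it) from the mean of its genotype, in log2 units (colour), for the 8 genes (rows). Mutant 4 is high for Fos, Fosb, Egr1, Jun and Junb and near its genotype mean for Atf3 and Ier2; mutant 2 is low for all genes but Fosb.

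Among 11382 other genes with a mean of at least 50 scaled counts, those whose log2 values over the 10 embryos were most like the mean of the 8 standardised profiles were Fez2 (Pearson r = 0.975), Arpc1b (0.97), Sqstm1 (0.953), Ier3 (0.946) and Fbxo6 (0.946). Sqstm1 encodes the autophagy receptor p62, Arpc1b a subunit of the actin-nucleating Arp2/3 complex, and Ier3 is itself an early response gene. After genotype means were taken out, Ccnd3, a D-type cyclin, was most alike (r = 0.986), followed by Chst14 (0.956), Tnfrsf1a (0.948), Vapb (0.946) and Cbfa2t3 (0.945). These are the top of a ranking over 10 embryos, and are given as a description.

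Other immediate early and early response genes went both ways. Of 33 tested (Egr2, Egr3 and Nr4a3 were too low), 10 rose and 4 fell (42.4% called, against 25.1% of all genes, 11.4% higher and 13.8% lower), with a median log2 fold change of 0.17, and with mutants 1, 2 and 5 alone set against all WT embryos, 9 rose and 6 fell. The small GTPase gene Rhob had 1300 ± 234.4 scaled counts in mutants and 501.1 ± 59.0 in WT (SD, n = 5 each; log2 fold change 1.36, SE 0.14, adjusted p = 6.07e-05). Gadd45g, of a family of stress sensors, rose by 1.12 (SE 0.20), Zfp36, which promotes the decay of short-lived mRNAs, by 0.91 (SE 0.20), and the zinc finger gene Klf6 by 0.58 (SE 0.09). In these 4 genes, which had the lowest adjusted p of the list, every mutant lay above every WT embryo. Of the 33, 8 had all mutants above WT (7.14% of all genes) and 3 had all mutants below WT (9.97% of all genes). The survival gene Mcl1 (0.18, adjusted p = 0.0853) and the kinase gene Sgk1 (0.54, adjusted p = 0.0591) did not pass. Mcl1 passed without mutant 4 (adjusted p = 0.0458) and with DESeq2 (0.0423). Sgk1 passed without mutant 4 (adjusted p = 0.00352), in mutants 1, 2 and 5 (0.0131), with DESeq2 (0.0158) and with edgeR (0.049). Outside the rule for named genes and chosen after their values were seen, the EGR paralogue Egr4 rose by 1.95 (adjusted p = 0.0396), and the genes that fell were Arc (−2.96), Trib1 (−0.93), Nfil3 (−0.63) and Ctgf (−0.51).

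Among other bZIP genes that can pair with AP-1 subunits, 5 of 13 rose and 0 fell (38.5% called, against 25.1% of all genes, median 0.83), and with mutants 1, 2 and 5 alone set against all WT embryos, 5 rose and 2 fell. The count of 0 lower was 1 at an unadjusted p under 0.05 and 0 with edgeR and DESeq2. The small MAF gene Maff rose by 1.01 (SE 0.19) and Mafg by 0.38 (SE 0.11), and Fosl2, a paralogue of Fos, rose by 1.48 (SE 0.36), with its highest value, 432.4, in mutant 3. The call for Mafg was lost without mutant 1, 2 or 5 or WT 4 (adjusted p = 0.0561 to 0.0586). Jund (−0.40, adjusted p = 0.0774) and Cebpb (0.10, adjusted p = 0.819) did not pass, and Jund was called lower without mutant 3 (adjusted p = 0.0488), without mutant 4 (0.0312) and in mutants 1, 2 and 5 (−0.62, adjusted p = 0.00671). The count of calls was 3 without mutant 1 or 2.

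Among genes upstream of the immediate early genes, the share called did not exceed that of all genes. Of 18 SRF, ETS, CREB and cofactor genes, 3 rose and 1 fell (22.2% called, against 25.1% of all genes, median −0.11), and with mutants 1, 2 and 5 alone set against all WT embryos, 2 rose and 4 fell. Elk3, an ETS factor that binds with SRF, rose to 388.1 ± 111.6 scaled counts in mutants, against 139.0 ± 14.2 in WT (SD, n = 5 each; log2 fold change 1.44, SE 0.19, adjusted p = 0.000321). Crem, a CREB family gene, rose by 0.96 (SE 0.25), and the coactivator Ep300 fell by 0.40 (SE 0.10). The ERK-activated kinase gene Rps6ka3 rose by 0.82 (SE 0.24), a call lost without mutant 2 or 3 or WT 1, 2, 3 or 5 (adjusted p = 0.0502 to 0.068). Rps6ka1 (0.00, adjusted p = 0.993) and the coactivator Crebbp (−0.23, adjusted p = 0.0876) did not pass.

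Of 24 kinase pathway genes, 3 rose and 3 fell (25% called, against 25.1% of all genes, median 0.10), and with mutants 1, 2 and 5 alone set against all WT embryos, 1 rose and 1 fell. The p38 kinase gene Mapk11 fell by 1.55 (SE 0.30, adjusted p = 0.00328), with every mutant below every WT embryo. Map3k1, an upstream kinase of the JNK pathway, rose by 0.93 (SE 0.29), a call lost without mutant 1, 2 or 3 or WT 1, 2 or 5 (adjusted p = 0.0548 to 0.0807). The kinase genes Map2k2 (−0.05, adjusted p = 0.75) and Mapk14 (0.00, adjusted p = 0.986) did not pass. The number of calls was 2 without mutant 2 or 3 or WT 1 or 5 and 3 without WT 2.

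Of 16 MAP kinase phosphatases and other feedback genes, 2 rose and 1 fell (18.8% called, against 25.1% of all genes, median 0.23), and with mutants 1, 2 and 5 alone set against all WT embryos, 2 rose and 0 fell. Dusp5, a nuclear phosphatase of ERK, had 1126 ± 100.1 scaled counts in mutants and 833.2 ± 91.9 in WT (SD, n = 5 each; log2 fold change 0.44, SE 0.11, adjusted p = 0.0116), every mutant above every WT embryo. Spry4 (0.60, adjusted p = 0.0492) and Spred2 (−0.41, adjusted p = 0.0418), inhibitors of RAS and ERK signalling, were each called narrowly. Spry4 was not called without mutant 1, 3 or 5 or any 1 WT embryo (adjusted p = 0.0539 to 0.115), nor Spred2 without mutant 1, 2 or 3 or WT 1, 2, 4 or 5 (0.052 to 0.0945). Dusp9 (−0.16) and Spred1 (0.29) did not pass. The number of calls was 1 without mutant 1 or 3 or WT 1, 4 or 5 and 6 without mutant 4.

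**Figure D4:**
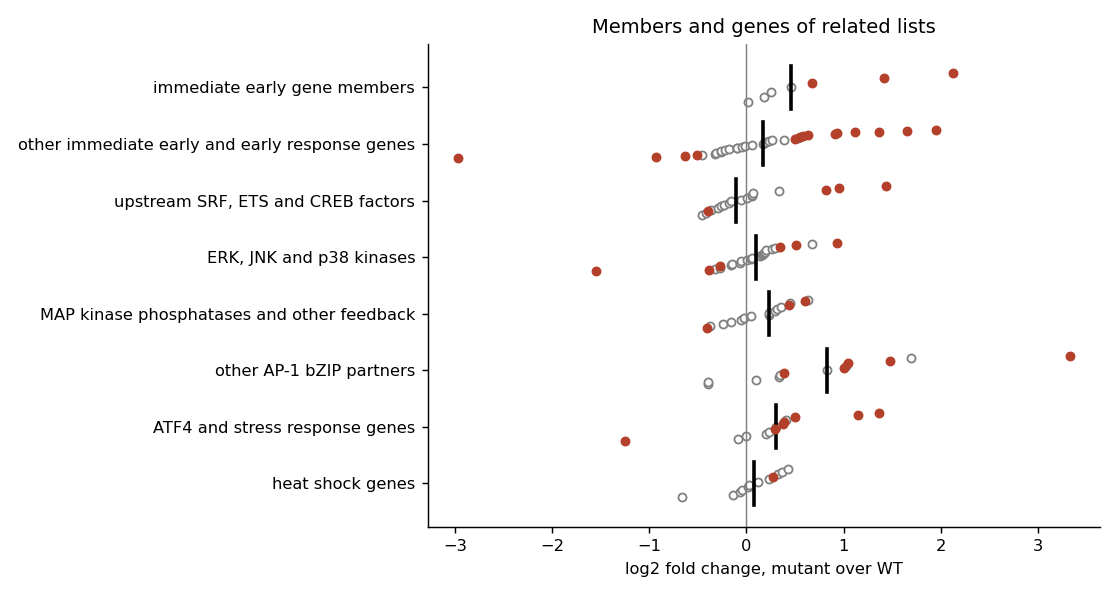
Log2 fold change, mutant over WT (x axis), of each tested gene of the 8 immediate early genes and of 7 related lists (rows), filled where limma's adjusted p was under 0.05 and open otherwise, with a black line at the median of each list. Called genes lie on both sides of 0 in 5 of the 7 related lists, and those of the immediate early genes, of the AP-1 partners and of the heat shock list lie to the right.

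**Figure D5:**
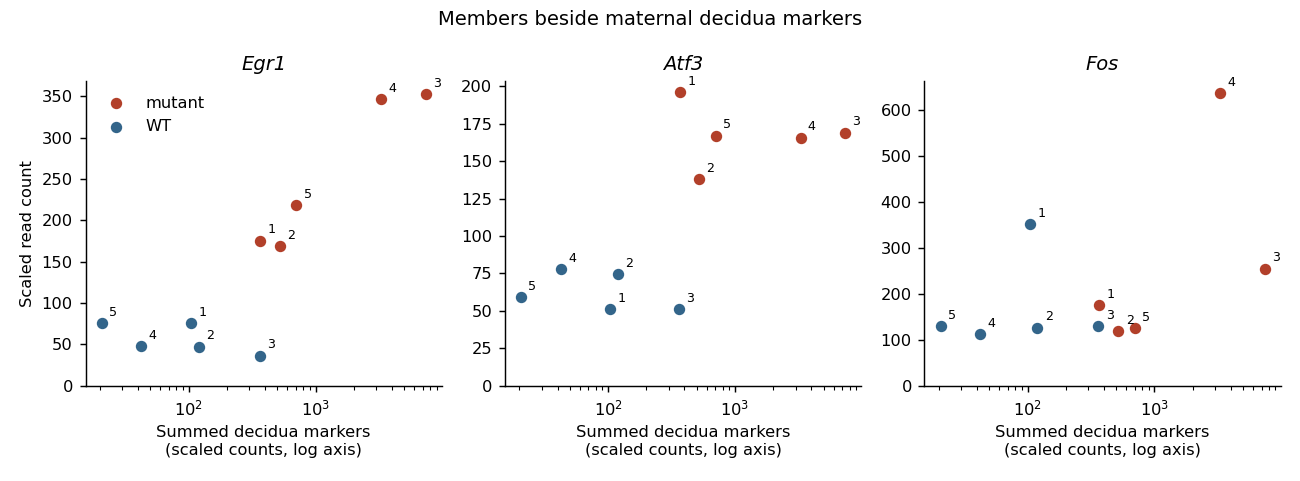
Scaled counts of Egr1, Atf3 and Fos (y axes, linear from 0) against the summed scaled counts of Prl8a2, Prl3c1 and Dcn (x axis, log scale) in mutant and WT embryos, with embryo numbers. Mutants 3 and 4, at 7378 and 3297 on the x axis, are highest for Egr1 and not for Atf3.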

How the data were processed

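Total RNA (1.9 to 2 ng per embryo) was amplified for 12 cycles with the SMART-Seq v4 kit and made into libraries with the KAPA Hyper Prep kit, per the labels' protocols. Per the submitters' processing notes, cutadapt 1.6, STAR 2.5.0a, HTSeq 0.5.3 and DESeq (no version given) were used with build mm10. Each deposited value is a signal, the reads of a gene in an embryo after the authors' division by that embryo's size factor. All 20006 genes were whole multiples of 1 step per embryo within 0.01 reads, and size factors ran from 0.881 to 1.196 (reads over scaled counts). Columns were matched to embryos by the descriptions in the labels.

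Genes with a mean of at least 10 scaled counts over the embryos (15429) were compared as log2(scaled count + 1) with limma 3.58.1 (intensity trend, no block) in R 4.3.3, so that fold changes of low genes are understated. Adjustment was by Benjamini-Hochberg over all genes tested, with a threshold of 0.05. Single values also had an exact permutation test, two-sided, over all 252 ways to assign the embryos. As the labels name no litters, p-values measure only the spread between these embryos. edgeR 4.0.16 and DESeq2 1.42.0 on the recovered reads, other pseudocounts (0.25 and 5), other filters (none and 50), TMM scaling and leaving out each embryo were alternatives. The fits were tested on simulated data.

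The 8 genes and all lists were chosen with earlier results of these data known. Named genes were the 8, Axin1 and Axin2, up to 4 called genes per list, by lowest adjusted p, and up to 2 not called with the highest mean, and the 5 genes most alike by each measure; some genes chosen in this way are not reported here. Exon overlaps and lengths come from GENCODE release M21 (GRCm38), which held 19935 of the 20006 identifiers (99.65%) without their version.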

Additional observations from a re-analysis of the deposited data

Results flagged for a closer look

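In 20 groups of 5 embryos (the 8 genes, Axin1 and Axin2 in each genotype), 3 values, from 2 embryos, stood farther from the rest of their genotype than Dixon's test allows at the 95% level (a gap of over 0.71 of the group's range). Chance alone flags about 1 group in 20. Fos measured 635.7 scaled counts in mutant 4, with the next mutant at 254.3, and 350.2 in WT 1, with the next WT embryo at 129.5. Junb measured 2918 in mutant 4, with the next mutant at 1889. Mutant 4 is the library that also had both Xist and Ddx3y, and its part in these 2 values was not tested.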

How the results depend on the processing

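Egr1 and Atf3 were called higher in mutants in each of 19 alternatives, with log2 fold changes of 1.76 to 2.25 and of 1.35 to 1.498. Junb was called in 12 of 19 (0.48 to 0.82), and Fos, Jun, Ier2 and Dusp1 in none. The number of the 7 tested genes called was 2 or 3 throughout. Fos (−0.15) and Jun (−0.022) turned negative in mutants 1, 2 and 5 against WT. Over all genes, 3877 calls became 2481 (without WT 5) to 4544 (without mutant 4) when 1 embryo was left out. In the same way, calls ran from 2 to 8 among the kinases, from 1 to 6 among the phosphatases and feedback genes, from 3 to 6 among the AP-1 partners and from 0 to 2 among the heat shock genes. The kinases had 2 calls in mutants 1, 2 and 5 against WT, and the phosphatases and feedback genes 1 without a filter. The heat shock list had 0 calls with a pseudocount of 5, without a filter, with edgeR and with the replicate block (4 genes at an unadjusted limma p under 0.05; DESeq2 called 1).

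Genes near 0 changed sign. When 1 embryo was left out, Ier2 ran from −0.055 to 0.11, Axin2 from −0.12 to 0.073, Rps6ka1 from −0.055 to 0.11, Map2k2 from −0.13 to 0.028, Mapk14 from −0.034 to 0.038, Cebpb from −0.10 to 0.24, Sesn2 from −0.15 to 0.0029 and Hspa8 from −0.066 to 0.11. Axin2 was 0.020 with edgeR, 0.024 with DESeq2 and 0.15 in mutants 1, 2 and 5 against WT, where Cebpb was −0.32. Rps6ka1 was −0.016 with edgeR and −0.011 with DESeq2. None of these values was past the threshold, and the cause was not tested.

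Deviations of embryos of the same number had correlations of −0.08 to 0.08. Only mutant 4 was most like the WT embryo of its own number (r = 0.062). The labels do not say what the numbers mark, and correlations near 0 cannot exclude a shared litter, so pairing is not known. With the replicate block 3253 genes were called, 2 of the 7 immediate early genes among them, Junb having an adjusted p = 0.051, and Sgk1 passed (adjusted p = 0.0166).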

Other observations

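Stress response genes linked to Atf3 were examined as well. Of 13 tested genes of the ATF4 and endoplasmic reticulum stress response, 6 rose and 1 fell (53.8% called, against 25.1% of all genes, 11.4% higher and 13.8% lower; median log2 fold change 0.30; 4 and 1 in mutants 1, 2 and 5 against WT). Asns, the asparagine synthetase that ATF4 activates, had 7219, 8715, 9063, 6177 and 8935 scaled counts in mutants 1 to 5, against 3456, 2829, 3084, 3105 and 2945 in WT 1 to 5. The groups lay far apart (log2 fold change 1.37, SE 0.11, limma adjusted p = 1.36e-05). Xbp1, a factor of the unfolded protein response, rose by 0.50 (SE 0.07), the serine synthesis gene Psat1 by 0.38 (SE 0.08) and the chaperone gene Hspa5 by 0.38 (SE 0.09). Atf4 itself (0.23, adjusted p = 0.0619) and Sesn2 (−0.09, adjusted p = 0.634) did not pass, and Atf4 passed without WT 2 (adjusted p = 0.0195) and with DESeq2 (0.034). Outside the rule and chosen after its value was seen, the growth inhibitor gene Ddit4 was the member that fell (−1.25, adjusted p = 0.0195). Without WT 5 the list had 5 higher and 0 lower calls, so that this call was lost.

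Of 12 heat shock genes, 1 rose and 0 fell (8.33% called, against 25.1% of all genes, median 0.08). Without mutant 1 the list had 0 higher and 1 lower call. The mitochondrial chaperonin gene Hspd1 (0.28, adjusted p = 0.0491) lost its call when any 1 embryo except WT 3 or WT 4 was left out (adjusted p = 0.0635 to 0.126). Hsp90ab1 (−0.06) and Hspa8 (0.02), the constitutive cytosolic chaperones, did not pass.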
